A study of Mus musculus with 2 samples.

Results

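Otx2 nuclei are nuclei of midbrain dopamine neurons in which at least 1 transcript of Otx2, a homeodomain transcription factor gene, was counted. The members were chosen by that count alone: of the 12065 nuclei with 500 or more detected genes, 124 carried an Otx2 unique molecular identifier (UMI, the tag that counts 1 captured RNA molecule once), 52 from males and 72 from females. Their Otx2 counts are therefore a description. Of the 124 nuclei, 118 held 1 Otx2 UMI and 6 held 2, which gave 54 and 76 Otx2 UMIs per library. The nuclei just outside the rule held none, and they fall into 6042 nuclei with neither Otx2 nor Sox6 (Otx2-/Sox6- nuclei) and 5899 with Sox6 and no Otx2 (Sox6 nuclei).

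Both libraries came from adult Dat-IRES-Cre, CAG-Sun1/sfGFP mice, in which Cre made under the dopamine transporter gene switches on a green fluorescent protein of the nuclear membrane. GFP+ singlet nuclei of a ventral midbrain block were sorted and profiled by droplet single-nucleus RNA sequencing (snRNA-seq), with 1 library from 2 pooled males and 1 from 3 pooled females. There was no untreated or mutant group, all nuclei share the genotype, and the pooled mice of a library cannot be told apart, so n = 2 libraries, and neither variation among mice nor a sex difference can be read from them. The files held 21631906 UMIs in 6594 male nuclei and 19870131 UMIs in 5557 female nuclei, and the libraries shared 6 barcodes. Any cell that ever used the transporter gene keeps the label, so the sort can hold nuclei with weak dopaminergic expression.

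Otx2 patterns the forebrain and midbrain of the embryo and is needed to form midbrain dopamine progenitors. In the adult ventral midbrain it is known from dopamine neurons of the ventral tegmental area (VTA), where it is set against Sox6, a transcription factor of substantia nigra pars compacta (SNc) neurons. Neurons with Otx2 are known to carry Aldh1a1, which encodes an aldehyde dehydrogenase that makes retinoic acid and clears dopamine aldehydes, or Calb1, the gene of the calcium buffer calbindin. These 3 genes were the markers for the label.

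Otx2 (ENSMUSG00000021848) lies on the minus strand at chr14:48657677-48673819 (mm10). Its antisense-side neighbour Otx2os1 (ENSMUSG00000098682), annotated as a long intergenic noncoding RNA, runs the other way at chr14:48668708-48870683, so that 5112 bases of the genes lie opposite each other. Whether reads were counted by strand is not given in the sources used here, so part of an Otx2os1 count could be an Otx2 read or the reverse.

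The share of nuclei with an Otx2 UMI is given by Sox6 count as a description, since these 2 genes chose the classes. In the male library 42 of 3446 nuclei with no Sox6 UMI had an Otx2 UMI (1.22%, exact Clopper-Pearson 95% interval 0.880 to 1.64). With 1, 2 and 3 or more Sox6 UMIs the male shares were 0.319% (0.0870 to 0.815), 0.408% (0.0843 to 1.19) and 0.267% (0.0552 to 0.779). In the female library they were 1.97% (1.48 to 2.57) with none, and 0.825% (0.357 to 1.62), 0.318% (0.0385 to 1.14) and 0.738% (0.338 to 1.40) with 1, 2 and 3 or more. The interval without Sox6 lies above the others, except that it overlaps that with 2 Sox6 UMIs in males and that with 1 in females. Nuclei with 3 or more Sox6 UMIs were deeper, with medians of 4318 and 4741 UMIs against 2280.5 and 2437 without. After each nucleus was thinned to 1000 UMIs, the male share was 0.533% (0.316 to 0.840) without Sox6, and 0 of 1248, 734 and 1122 nuclei with 1, 2 and 3 or more (exact upper bounds 0.295%, 0.501% and 0.328%). The female share was 0.749% (0.451 to 1.17) without Sox6, and 0.104% (0.00262 to 0.576), 0.159% (0.00404 to 0.885) and 0.164% (0.0199 to 0.591) with 1, 2 and 3 or more. The thinned intervals overlap that without Sox6 in every case but the male nuclei with 1 Sox6 UMI. These intervals and limits cover counting error only. Nuclei with GABAergic transcripts and no Th or Slc6a3, which could show a background of free RNA, held no Otx2 UMI in 51 male and 23 female nuclei (median 2427 and 2119 UMIs). By the 3-count rule that allows shares up to 5.88% and 13.0%, and by the exact interval up to 6.98% and 14.8%, so a background near the 0.793% and 1.31% of all nuclei was not detectable at this number of nuclei.

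Of the 124 Otx2 nuclei, 123 had a UMI of Th, Slc6a3, Ddc or Slc18a2, the genes of dopamine synthesis, reuptake and vesicle loading. Their median depth was 2717 UMIs in males and 3237 in females, with ranges of 1290 to 18297 and 1231 to 19322, and 12 of them lay among the 5% of nuclei with the most UMIs. A Sox6 UMI was present in 29 of 124 Otx2 nuclei (23.4%). Among depth-matched nuclei without Otx2 it was present in 324 of 620 (52.3%). The 10 male and 19 female Otx2 nuclei with Sox6 were deeper than the rest, with medians of 6840.5 and 3887 UMIs against 2566.5 and 2968. They held 79476 of the 196694 UMIs of male Otx2 nuclei and 129184 of the 307587 of female ones. Levels given below for Otx2 nuclei therefore mix nuclei with and without Sox6. No doublet caller was run. With these 29 nuclei left out of the fits described below, 54 genes were higher and 50 lower than in Otx2-/Sox6- nuclei, and 51 of the 77 calls made with them were kept. Against Sox6 nuclei 281 were higher and 213 lower, and 370 of 427 calls were kept.

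The label's other markers split the Otx2 nuclei. Aldh1a1 without Calb1 was detected in 39 of 124 (31.5%), Calb1 without Aldh1a1 in 16 of 124 (12.9%), both in 18 of 124 (14.5%) and neither in 51 of 124 (41.1%). Among the 620 matched nuclei without Otx2 the same shares were 29.4%, 8.55%, 4.84% and 57.3%. Both markers together were detected in the male library in 9.62% against 3.85%, with intervals that overlap (3.20% to 21.0% and 1.86% to 6.96%), and in the female library in 18.1% against 5.56%, with intervals that do not (9.98% to 28.9% and 3.43% to 8.45%). Nuclei with neither marker were fewer among Otx2 nuclei in the male library, 34.6% against 60.8% (22.0% to 49.1% and 54.5% to 66.7%), while the female intervals, around 45.8% and 54.7%, overlap. A count of 0 in a single nucleus does not show that it lacked the transcript.

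To compare other genes, UMIs were summed over the Otx2 nuclei of each library, over 5 Otx2-/Sox6- nuclei and over 5 Sox6 nuclei per member, taken from the same library at the nearest UMI total. The sums of Otx2 nuclei held 196694 and 307587 UMIs, and levels are given as CPM (counts scaled to 1e6 UMIs per sum), the male library first. Over 260 and 360 nuclei, the Otx2-/Sox6- sums held 926254 and 1375566 UMIs. The Sox6 sums, over as many nuclei, held 985624 and 1537039. Median depths were alike, but the Otx2-/Sox6- nuclei were shallower on average, so their match on depth was less close. Over 9370 genes, edgeR's quasi-likelihood test with library as a block and Benjamini-Hochberg adjustment called 42 genes higher in Otx2 nuclei than in Otx2-/Sox6- nuclei (0.448% of those tested) and 35 lower (0.374%). Against Sox6 nuclei it called 258 higher (2.75%) and 169 lower (1.8%). Without adjustment, 699 and 1242 genes had p under 0.05. The comparisons share the sums of Otx2 nuclei and are not independent of each other. The first count depends on the fit: DESeq2 called 4 higher and 1 lower, and the fit without the library block 1 and 2. Otx2os1 and Cacna2d3 were called by all of these fits.

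The neighbouring transcript stood apart from both comparison classes. Otx2os1 was at 193 and 182 CPM in Otx2 nuclei, at 70.2 and 64.0 CPM in Otx2-/Sox6- nuclei and at 20.3 and 18.9 CPM in Sox6 nuclei. Both libraries gave the same order, with no overlap between classes. It was 2.79-fold higher than in Otx2-/Sox6- nuclei (log2 fold change 1.48, SE 0.21, adjusted p = 5.5e-08) and 9.33-fold higher than in Sox6 nuclei (log2 fold change 3.22, SE 0.25, adjusted p = 5.2e-22). After thinning to 1000 UMIs it was detected in 21.0% (14.2 to 29.2) of Otx2 nuclei, 5.65% (3.96 to 7.76) of Otx2-/Sox6- nuclei and 1.29% (0.559 to 2.53) of Sox6 nuclei, here and below with exact 95% intervals in parentheses. Unthinned, it was detected in 41.9%, 15.8% and 5.48%. Within the Otx2 nuclei its level where Sox6 was present was 75.5 and 108 CPM against 273 and 235 CPM, a difference that was not tested. The overlap with Otx2 on the other strand limits what these counts say about Otx2os1 alone.

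Aldh1a1 at chr19:20492715-20643465 was higher in Otx2 nuclei than in Otx2-/Sox6- nuclei. Its level was 214 and 312 CPM against 126 and 137 CPM, higher in both libraries (2.04-fold, log2 fold change 1.03, SE 0.17, adjusted p = 6.4e-06). The call was lost with DESeq2 (adjusted p = 0.081), without the block (0.25) and after thinning (0.46), the range over all fits being 5.4e-06 to 0.46. Against Sox6 nuclei, at 185 and 217 CPM, it did not pass (log2 fold change 0.38, SE 0.16, adjusted p = 0.19). After thinning, the share of nuclei with an Aldh1a1 UMI was 16.9% (10.8 to 24.7) in Otx2, 10.6% (8.33 to 13.3) in Otx2-/Sox6- and 19.4% (16.3 to 22.7) in Sox6 nuclei, and unthinned 46.0%, 24.5% and 40.2%. Thinning draws UMIs at random, and a second draw gave 24.2%, 11.9% and 16.5%, so that the order of Otx2 and Sox6 nuclei depends on the draw. The male Otx2 nuclei were at 9.62% in the first draw and 26.9% in the second, the female ones at 22.2% in both, so no difference between the libraries can be read from these shares. One female nucleus held 14 of the 96 female Aldh1a1 UMIs. In Otx2 nuclei with Sox6 Aldh1a1 was at 101 and 364 CPM, and in those without at 290 and 275 CPM, so the libraries differed in direction.

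Calb1 passed in the other comparison. It was at 91.5 and 104 CPM in Otx2 nuclei and at 27.4 and 36.4 CPM in Sox6 nuclei, 2.94-fold higher in the first (log2 fold change 1.56, SE 0.28, adjusted p = 1.0e-05). Against Otx2-/Sox6- nuclei, at 82.1 and 72.0 CPM, the log2 fold change was 0.37 (SE 0.24) and did not pass (adjusted p = 0.82). Thinned shares were 10.5% (5.70 to 17.3), 7.90% (5.90 to 10.3) and 2.42% (1.36 to 3.96) in Otx2, Otx2-/Sox6- and Sox6 nuclei. The label's markers were both measured in the Otx2 nuclei, Aldh1a1 above the Otx2-/Sox6- nuclei and Calb1 above the Sox6 nuclei.

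**Figure D1:**
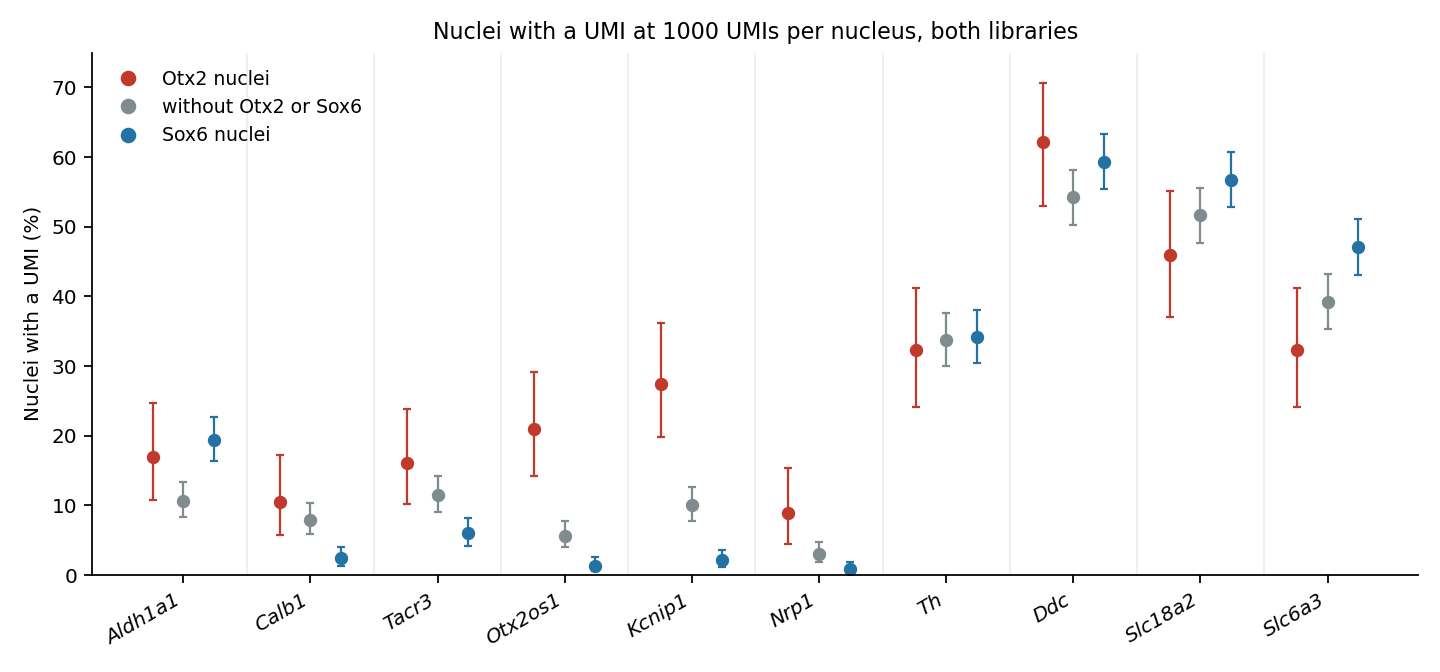
Share of nuclei with a UMI of 10 genes (y axis, percent, after thinning each nucleus to 1000 UMIs) in Otx2 nuclei (red), Otx2-/Sox6- nuclei (grey) and Sox6 nuclei (blue), both libraries pooled, with bars for exact 95% intervals of counting error. For Otx2os1 (21.0%) and Kcnip1 (27.4%) the interval of Otx2 nuclei lies above both others, for Nrp1 (8.87%) it touches that of Otx2-/Sox6- nuclei, and for Th, Ddc and Slc18a2 the intervals overlap. In a second thinning draw Otx2os1 (15.3%) and Kcnip1 (24.2%) again lay above both others, while Ddc in Otx2 nuclei was at 70.2% (61.3 to 78.0) against 57.1% (53.1 to 61.0) in Otx2-/Sox6- nuclei.

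Genes of dopamine handling were counted in all classes. Th, tyrosine hydroxylase, was at 422 and 501 CPM in Otx2 nuclei, 318 and 441 CPM in Otx2-/Sox6- nuclei and 329.7 and 435 CPM in Sox6 nuclei, and Ddc, the decarboxylase of the next step, at 1103 and 1001 CPM, 950.1 and 843 CPM and 982 and 911 CPM. Neither passed in a comparison. Of the list of 10 genes for dopamine synthesis, storage, reuptake and feedback, 9 were tested and none passed against Otx2-/Sox6- nuclei (median log2 fold change -0.07, -0.007 over all genes tested). Against Sox6 nuclei 3 of the 9 were lower, where 1.8% of all genes were (median -0.12, -0.004 over all genes). Slc6a3, the dopamine transporter, was at 366 and 611 CPM against 552 and 714 CPM (log2 fold change -0.38, SE 0.12, adjusted p = 0.035), a call lost in 4 of the other fits, with a range of adjusted p from 5.3e-05 to 0.80. Drd2, the D2 autoreceptor, was at 239 and 215 CPM against 325 and 383 CPM (log2 fold change -0.70, SE 0.15, adjusted p = 3.9e-04), a call lost with DESeq2, without the block and after thinning (adjusted p up to 0.77). Kcnj6, which encodes the GIRK2 potassium channel that D2 receptors open, was at 859 and 803 CPM against 1169.8 and 1302 CPM (log2 fold change -0.62, SE 0.10, adjusted p = 2.3e-07). In each of these 3 genes the Sox6 nuclei were higher in both libraries, and for Slc6a3 the female Otx2 nuclei were above the male Sox6 nuclei.

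Of 16 transcription factors of midbrain dopamine neurons, 3 were higher than in Otx2-/Sox6- nuclei and none lower, where 0.448% and 0.374% of all genes were (median log2 fold change -0.04). Tcf4 and Tcf12 encode E proteins, the dimer partners of basic helix-loop-helix factors, and Ebf1 an early B cell factor also used by neurons. Tcf4 was at 371 and 315 CPM against 199 and 221 CPM (log2 fold change 0.67, SE 0.15, adjusted p = 0.0035), Tcf12 at 269 and 279.6 CPM against 174 and 182 CPM (adjusted p = 0.025) and Ebf1 at 183 and 159 CPM against 82.1 and 109.8 CPM (adjusted p = 0.031). None of these 3 calls held with DESeq2, without the block or after thinning. An Ebf1 UMI was found in 33.9% of Otx2, 20.2% of Otx2-/Sox6- and 31.3% of Sox6 nuclei, and Ebf1 did not pass against Sox6 nuclei. Against Sox6 nuclei Tcf4 (196 and 193 CPM, adjusted p = 5.2e-05) and Tcf12 (114 and 110.0 CPM, adjusted p = 1.1e-09) were higher, and both of these calls held with DESeq2 and without the block, with Tcf12 alone holding after thinning. Nr4a2 and Pitx3, the factors that maintain the dopaminergic program, did not pass in either comparison; Nr4a2 was at 208 and 218 CPM in Otx2 nuclei, 199 and 178 CPM in Otx2-/Sox6- and 203 and 181 CPM in Sox6 nuclei.

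Ordered by size, the genes named as higher than in Otx2-/Sox6- nuclei were Doc2a, Tnfrsf19, Col23a1, Otx2os1, Nrp1, Kcnh5, Kcnip1, Aldh1a1, Plpp4, Sorcs3, Airn and Rmst. Of these 12 calls DESeq2 made those of Otx2os1 and Rmst, and the fit without the block that of Otx2os1. Over 13 fits the Otx2os1 call was never lost, those of Rmst, Plpp4, Sorcs3, Col23a1, Kcnip1, Aldh1a1 and Kcnh5 were lost in 1 to 4, those of Tnfrsf19 and Doc2a in 6 (Doc2a was tested in 11) and those of Nrp1 and Airn in 8. Doc2a, a calcium sensor of spontaneous transmitter release, was at 35.6 and 32.5 CPM in Otx2 nuclei and 4.32 and 8.72 CPM in Otx2-/Sox6- nuclei (4.77-fold, log2 fold change 2.25, SE 0.59, adjusted p = 0.030), on 17 UMIs in 14 of 124 Otx2 nuclei. Col23a1, a transmembrane collagen, was at 112 and 224 CPM against 68.0 and 53.8 CPM and 12.2 and 16.3 CPM in Sox6 nuclei (log2 fold change 1.58, SE 0.22, adjusted p = 5.5e-08 against the first). The libraries differed in size but not in direction, and 1 female nucleus held 14 of the 69 female Col23a1 UMIs. Col23a1 was at 25.2 and 46.4 CPM in Otx2 nuclei with Sox6 and at 171 and 353 CPM in those without, a difference that was not tested. Tnfrsf19, a receptor of the tumor necrosis factor family, was at 55.9 and 65.0 CPM against 19.4 and 20.4 CPM and 18.3 and 9.76 CPM (log2 fold change 1.61, SE 0.37, adjusted p = 0.0056 against the first), with a UMI in 16.9% of Otx2 nuclei, 5.48% of Otx2-/Sox6- nuclei and 4.68% of Sox6 nuclei. Both Otx2 sums lay above all 4 others for each of these 3 genes. The Col23a1 call was lost with DESeq2, without the block and after thinning (adjusted p 1.2e-11 to 0.25 over all fits).

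Rmst and Sorcs3 were among the more abundantly counted of these genes. Rmst, a long noncoding RNA of midbrain and neural progenitors, was at 544 and 436 CPM in Otx2 nuclei, 297 and 234 CPM in Otx2-/Sox6- and 119 and 91.1 CPM in Sox6 nuclei. A Rmst UMI was found in 69.4% of Otx2 nuclei, 42.7% and 23.1% of the others, so the classes were ordered the same way in level and in detection. The difference from Otx2-/Sox6- nuclei had a log2 fold change 0.88, SE 0.13, adjusted p = 3.4e-07, and DESeq2 also called it (adjusted p = 0.043), while the fit without the block did not (0.47; range over all fits 3.4e-07 to 0.47). Sorcs3, a sorting receptor of synapses, was at 336 and 455 CPM, 232 and 199.9 CPM and 116 and 57.9 CPM (log2 fold change 0.93, SE 0.15, adjusted p = 4.0e-06 against Otx2-/Sox6- nuclei). Plpp4, a lipid phosphatase, was at 254 and 263 CPM, 157 and 118 CPM and 32.5 and 33.2 CPM (log2 fold change 0.95, SE 0.17, adjusted p = 6.2e-05). Airn, the imprinted RNA antisense to Igf2r, was at 163 and 127 CPM, 81.0 and 71.2 CPM and 94.4 and 42.3 CPM (log2 fold change 0.90, SE 0.23, adjusted p = 0.020), with the same doubt over strand as Otx2os1. The Airn call was lost in 8 of 13 fits, with an adjusted p of 0.0038 to 1.00 over all of them. For Rmst, Sorcs3 and Plpp4 the Sox6 nuclei were the lowest in both libraries, and for Airn only in the female one.

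**Figure D2:**
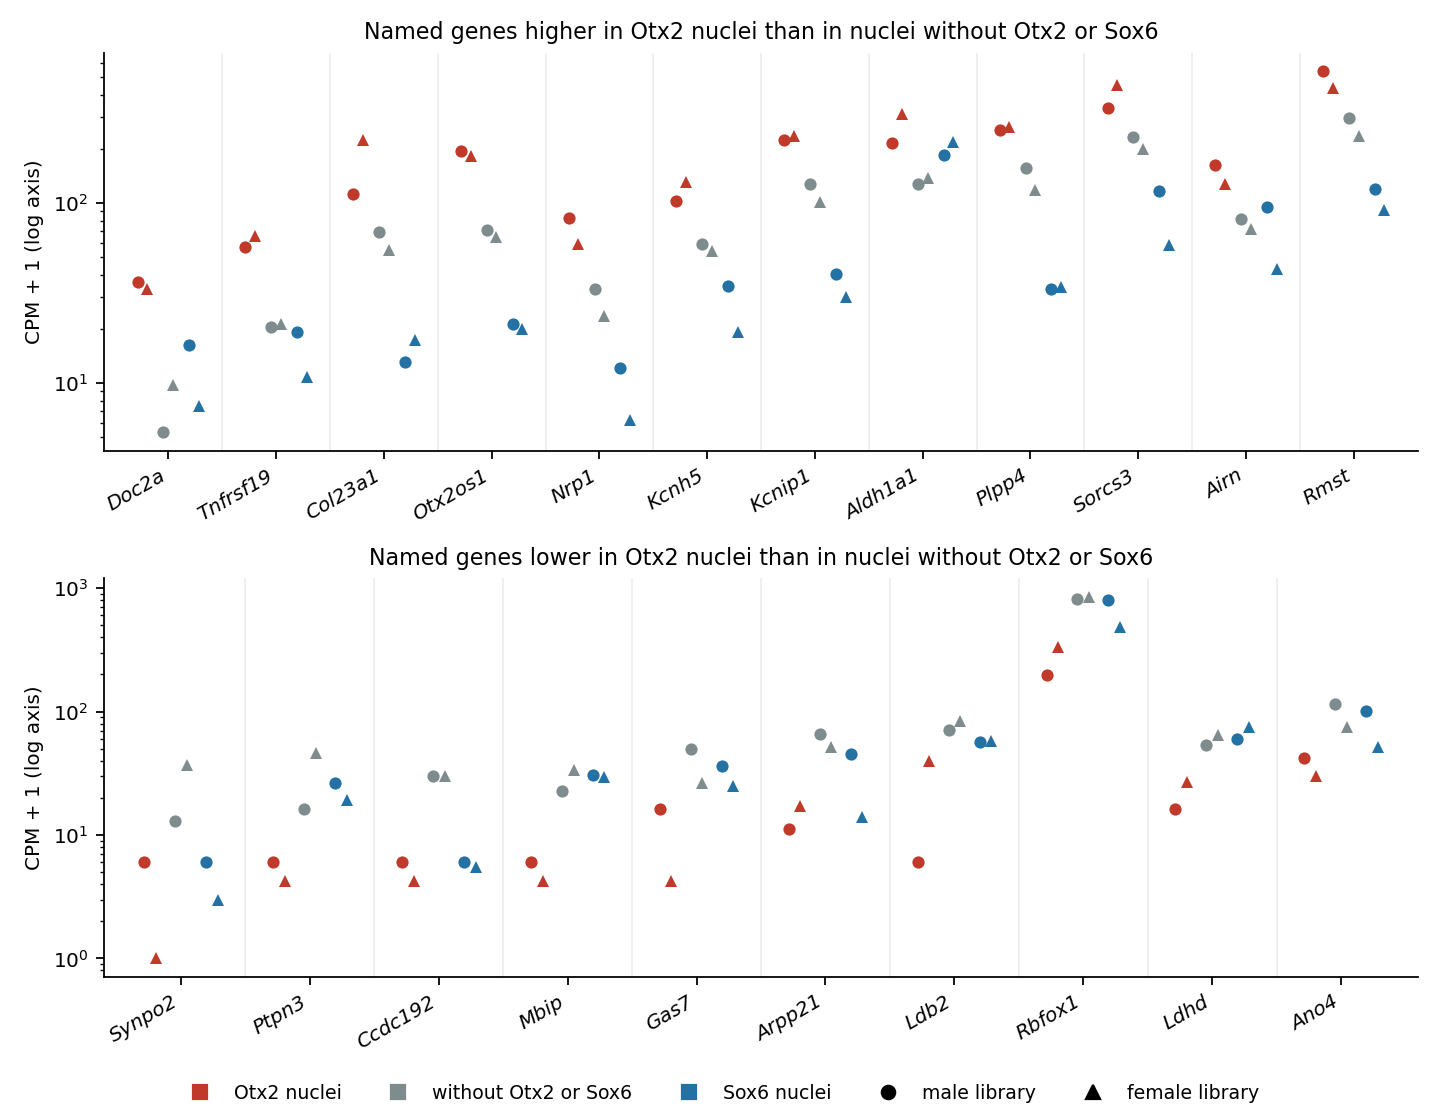
Levels (y axis, CPM + 1 on a log axis) of the named genes higher (top) or lower (bottom) in Otx2 nuclei than in Otx2-/Sox6- nuclei, for the sums of Otx2 (red), Otx2-/Sox6- (grey) and Sox6 nuclei (blue) in the male (circles) and female library (triangles). In the top panel every red point lies above both grey points of its gene, for example Rmst at 544 and 436 CPM against 297 and 234 CPM, and in the bottom panel every red point lies below both.

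The named genes lower than in Otx2-/Sox6- nuclei rest on few UMIs in the Otx2 nuclei. DESeq2 made none of these 10 calls, and the fit without the block made that of Rbfox1. The Rbfox1 call was lost in 1 of 13 fits, and that of Gas7 in 10 of the 12 that tested it. The Synpo2 call was lost in 5 of the 7 fits that tested it, and that of Mbip in 8 of 11. Those of Ptpn3 and Ccdc192 were lost in 6 of 10 fits, and that of Arpp21 in 5 of 12. Over 13 fits the Ano4 call was lost in 6, and those of Ldb2 and Ldhd in 7. Synpo2, an actin-binding protein gene, had 1 UMI in Otx2 nuclei against 60 in Otx2-/Sox6- nuclei, a CPM ratio of 0.0761 (95% interval 0.00189 to 0.440), and 1 of the Otx2-/Sox6- nuclei held 17 of the 60. Ptpn3 (a tyrosine phosphatase), Ccdc192 and Mbip had 2 UMIs each, at ratios of 0.120 (95% interval 0.0143 to 0.449), 0.136 (95% interval 0.0162 to 0.512) and 0.140 (95% interval 0.0167 to 0.528). Gas7, Arpp21, Ldb2, Ldhd and Ano4 had 4 to 17 UMIs in Otx2 nuclei and log2 fold changes of -2.11 to -1.40. Arpp21, a cAMP-regulated phosphoprotein, was at 10.2 and 16.3 CPM against 64.8 and 50.9 CPM, and Ldb2, a cofactor of LIM homeodomain factors, at 5.08 and 39.0 CPM against 70.2 and 82.1 CPM. In each of the 10 named genes both Otx2 sums lay below both Otx2-/Sox6- sums.

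Rbfox1 was lower with more UMIs behind it. This neuronal splicing factor gene at chr16:5885355-7411526 was at 198 and 332 CPM in Otx2 nuclei, 809.7 and 853 CPM in Otx2-/Sox6- nuclei and 803 and 483 CPM in Sox6 nuclei (log2 fold change -1.58, SE 0.14, adjusted p = 1.6e-16 and log2 fold change -1.18, SE 0.15, adjusted p = 1.3e-10). A UMI was found in 46 of 124 Otx2 nuclei (37.1%), 48.5% of Otx2-/Sox6- and 65.0% of Sox6 nuclei. A few comparison nuclei were extreme, with up to 136 and 141 Rbfox1 UMIs in 1 nucleus against 18 in Otx2 nuclei. DESeq2 did not call it against Otx2-/Sox6- nuclei (adjusted p = 0.57), with a range of 4.9e-39 to 0.57 over all fits. Cacna2d3, a calcium channel subunit gene chosen for mention after its values were seen, was at 289.8 and 309 CPM against 702 and 769.9 CPM in Otx2-/Sox6- nuclei (log2 fold change -1.31, SE 0.13, adjusted p = 5.0e-15).

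More genes passed against Sox6 nuclei. Of the 258 genes higher in Otx2 nuclei, 133 differed at least 2-fold, and of the 169 lower ones, 52. By size the named higher genes were Col23a1 (11.9-fold), Casr, Otx2os1, Lpl, Nrp1, Piezo2, Htr4, Eya1, Plpp4, Npsr1, Kcnip1 and Tmem132e (6.71-fold). Casr, the calcium-sensing receptor, was at 30.5 and 55.3 CPM in Otx2 nuclei and 4.06 and 3.90 CPM in Sox6 nuclei (log2 fold change 3.44, SE 0.55, adjusted p = 5.8e-07). Lpl, lipoprotein lipase, was at 45.8 and 26.0 CPM against 5.07 and 2.60 CPM (log2 fold change 3.16, SE 0.62, adjusted p = 6.1e-05), on 17 and 9 UMIs. Npsr1, the neuropeptide S receptor, was at 96.6 and 52.0 CPM against 14.2 and 7.16 CPM (log2 fold change 2.76, SE 0.39, adjusted p = 1.1e-08). In all 12 genes both Otx2 sums lay above both Sox6 sums, and the Otx2-/Sox6- sums of Casr, Lpl and Npsr1, at 13.0 and 20.4 CPM, 24.8 and 16.7 CPM and 34.5 and 46.5 CPM, lay between the 2 classes. Piezo2 (a mechanically gated channel, 35.6 and 29.3 CPM against 2.03 and 4.55 CPM), Htr4 (a serotonin receptor, 35.6 and 32.5 CPM against 5.07 and 3.25 CPM) and Eya1 (a transcriptional cofactor, 66.1 and 35.8 CPM against 2.03 and 8.46 CPM) had adjusted p of 4.7e-04, 1.5e-04 and 2.8e-06. DESeq2 and the fit without the block each made 11 of these 12 calls, all but that of Tmem132e.

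The named genes lower than in Sox6 nuclei were Chchd10, Mbip, Ntng2, Vill, Greb1, Lypd1, Msrb3, Gas7, St8sia6 and Klhl2. Chchd10, a mitochondrial protein gene, had no UMI in Otx2 nuclei against 16.2 and 13.0 CPM in Sox6 nuclei, at least 2.40-fold lower if 3 UMIs over both libraries (5.95 CPM) are taken as the limit of detection. Vill, a villin-like protein gene, was at 10.2 and 22.8 CPM against 50.7 and 89.8 CPM (4.24-fold lower, log2 fold change -2.09, SE 0.39, adjusted p = 2.9e-05), and Greb1 at 10.2 and 13.0 CPM against 51.7 and 46.8 CPM (4.15-fold lower, adjusted p = 0.0012). Ntng2, which encodes netrin-G2, a presynaptic adhesion protein, had 3 UMIs in Otx2 nuclei, a CPM ratio of 0.211 (95% interval 0.0426 to 0.643), and Mbip 2 UMIs, a ratio of 0.137 (95% interval 0.0163 to 0.513). The other named genes were 3.37-fold to 3.93-fold lower. Both Otx2 sums were below both Sox6 sums in all 10. None of the 10 calls held with DESeq2, and those of Greb1, Klhl2 and Mbip held without the block. The Gas7 call was lost in each of its 11 other fits. Of the 10 fits that tested them, the Msrb3 call was lost in 7, that of Lypd1 in 6 and that of Ntng2 in 5. The St8sia6 call was lost in 5 of 12.

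**Figure D3:**
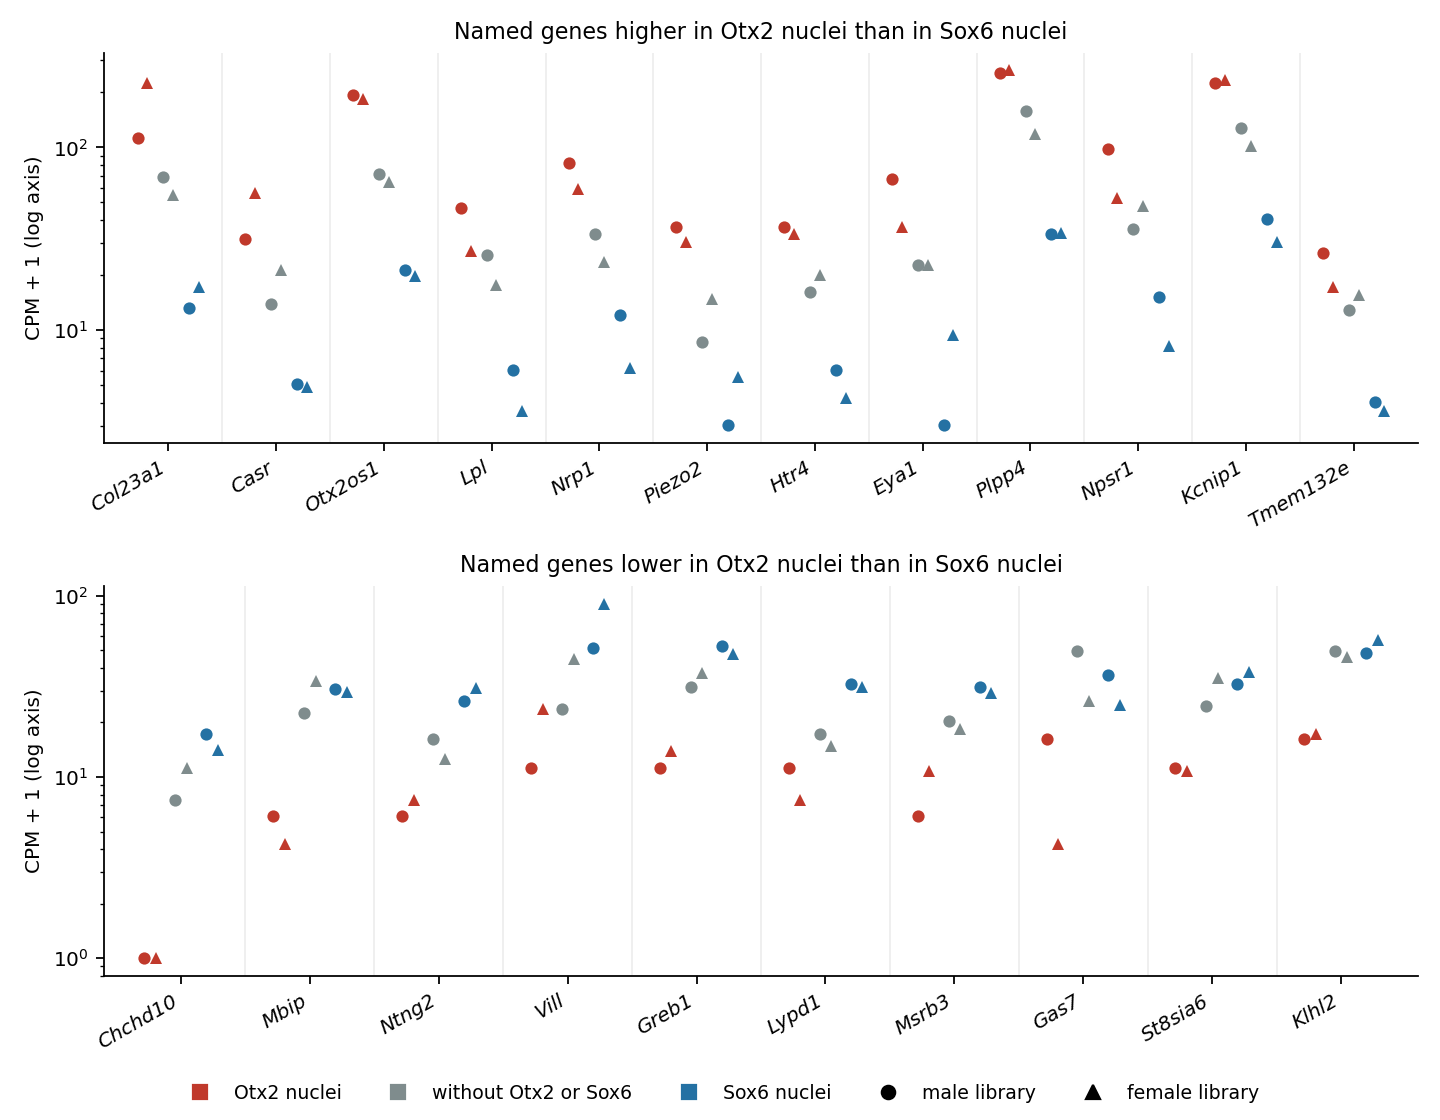
Levels (y axis, CPM + 1 on a log axis) of the named genes higher (top) or lower (bottom) in Otx2 nuclei than in Sox6 nuclei, for the sums of Otx2 (red), Otx2-/Sox6- (grey) and Sox6 nuclei (blue) in the male (circles) and female library (triangles). Red and blue points do not overlap within a gene, and in each library the grey points of the top panel lie between them, as for Casr at 30.5 and 55.3 CPM, 13.0 and 20.4 CPM and 4.06 and 3.90 CPM.

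Of 15 genes used to tell VTA subtypes apart, 9 were tested. Against Sox6 nuclei 3 were higher and none lower, where 2.75% and 1.8% of all genes were (median log2 fold change 1.20, -0.004 over all genes tested), namely Calb1, Lpl and Tacr3, and all 3 calls held with DESeq2 and without the block. After thinning the Tacr3 call was lost (adjusted p = 0.051), Lpl could not be tested and Calb1 held. Tacr3, the neurokinin 3 receptor, was at 254 and 159 CPM in Otx2 nuclei against 81.2 and 85.2 CPM in Sox6 nuclei (log2 fold change 1.20, SE 0.20, adjusted p = 9.2e-07) and 180.3 and 148 CPM in Otx2-/Sox6- nuclei (adjusted p = 0.80). Against Otx2-/Sox6- nuclei Aldh1a1 alone of the list passed, where 0.448% of all genes were higher (median 0.41). The other 6, Adcyap1, Grp, Neurod6, Vip, Cbln4 and Otx1, had too few UMIs to test. Neurod6, a factor of ventromedial VTA neurons, had 11 UMIs in 10 of 124 Otx2 nuclei (10.2 and 29.3 CPM), against 8.64 and 6.54 CPM in Otx2-/Sox6- and 5.07 and 3.90 CPM in Sox6 nuclei, and Adcyap1, the gene of the peptide PACAP, 3 UMIs. Slc17a6, the vesicular glutamate transporter Vglut2, was found in 7 of 124 Otx2 nuclei (5.65%) and 2.42% of matched nuclei without Otx2, and did not pass (adjusted p = 0.96 and 0.27).

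Of 16 genes of SNc subtypes, 15 were tested. None passed against Otx2-/Sox6- nuclei (median log2 fold change 0.10), and against Sox6 nuclei 7 were lower and none higher, where 1.8% and 2.75% of all genes were (median -0.69). DESeq2 made none of these 7 calls, and without the block those of Igf1 and Kcns3 held. Grin2c, an NMDA receptor subunit, was at 10.2 and 58.5 CPM in Otx2 nuclei and 78.1 and 109 CPM in Sox6 nuclei (log2 fold change -1.33, SE 0.31, adjusted p = 0.0011), with a UMI in 8.06% of Otx2 nuclei, 7.74% of Otx2-/Sox6- and 27.6% of Sox6 nuclei. Igf1, an insulin-like growth factor, was at 55.9 and 61.8 CPM against 112 and 152 CPM (log2 fold change -1.22, SE 0.25, adjusted p = 2.0e-04), and Satb1, a chromatin organizer that protects SNc neurons, at 229 and 286 CPM against 379 and 439 CPM (log2 fold change -0.69, SE 0.14, adjusted p = 1.9e-04). Alk, a receptor tyrosine kinase (117 and 94.3 CPM against 186 and 188 CPM), Kcns3 (96.6 and 74.8 CPM against 162 and 196 CPM), Kcnd3 and Atp2a3 completed the 7. Anxa1, the marker of a ventral SNc subtype, was at 10.2 and 26.0 CPM in Otx2 nuclei, in 6 nuclei, and did not pass (adjusted p = 0.81 and 0.92). The comparison class was chosen by Sox6, so genes that follow Sox6 can be higher in it whatever the Otx2 count.

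**Figure D4:**
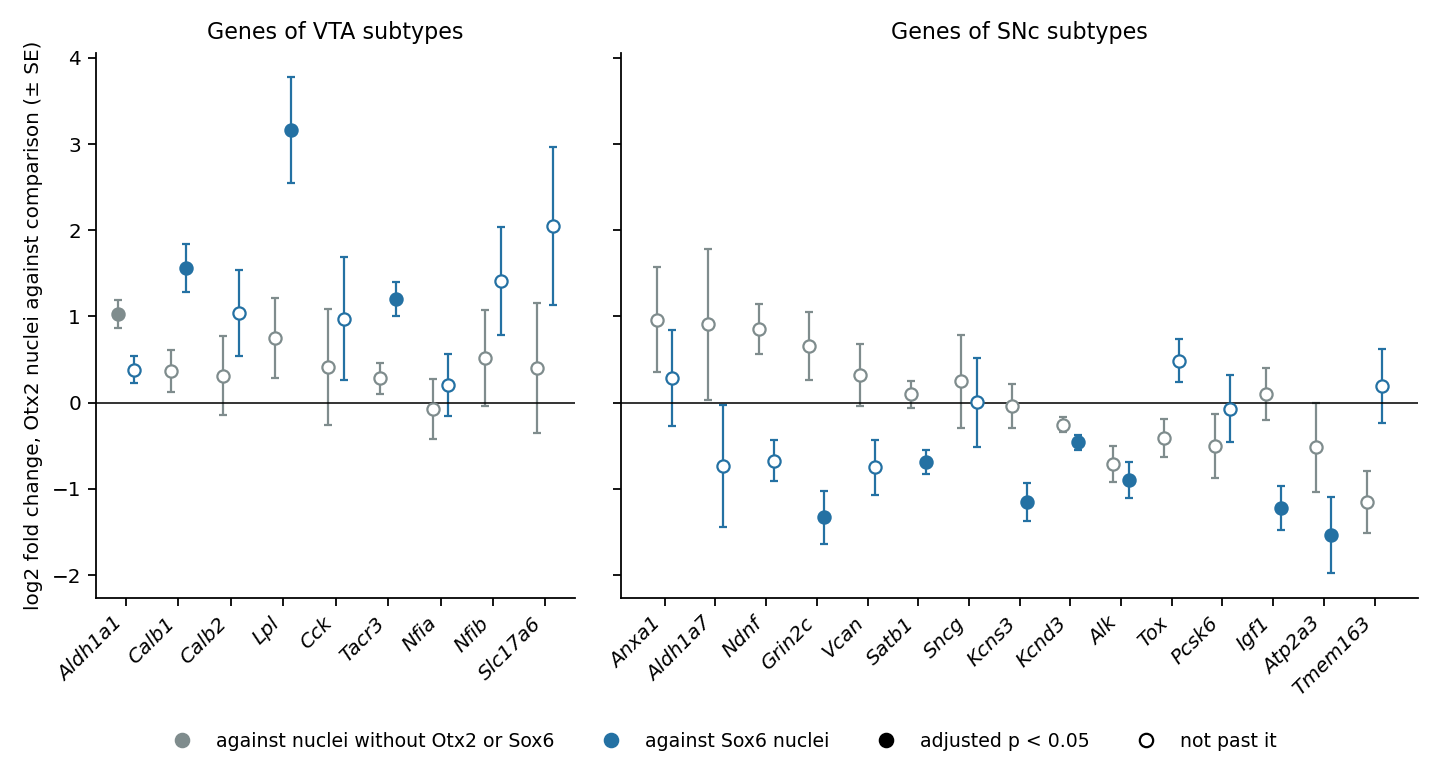
Fitted log2 fold changes (y axis, with SE bars) of the tested genes of VTA subtypes (left) and SNc subtypes (right) in Otx2 nuclei against Otx2-/Sox6- nuclei (grey) and Sox6 nuclei (blue), where filled points passed an adjusted p of 0.05. On the left 3 blue and 1 grey point are filled, all above 0, and on the right 7 blue points, all below 0.

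Few axon guidance genes passed against Otx2-/Sox6- nuclei. Of 23 tested of 28, Nrp1 and Epha5 were higher and Unc5d lower, where 0.448% and 0.374% of all genes were (median log2 fold change 0.02). Nrp1, the semaphorin 3 and VEGF co-receptor, was at 81.3 and 58.5 CPM in Otx2 nuclei, 32.4 and 22.5 CPM in Otx2-/Sox6- nuclei and 11.2 and 5.20 CPM in Sox6 nuclei (log2 fold change 1.34, SE 0.33, adjusted p = 0.018 and log2 fold change 3.11, SE 0.41, adjusted p = 1.1e-09), and among Otx2 nuclei with Sox6 0 of 10 male and 3 of 19 female nuclei held a Nrp1 UMI. Unc5d, a netrin receptor, was at 198 and 169 CPM against 344 and 235 CPM (adjusted p = 0.032), and Epha5, an ephrin receptor, at 1144 and 1304 CPM against 881 and 979 CPM (adjusted p = 0.0089). An Epha5 UMI was found in 91.1% of Otx2, 87.4% of Otx2-/Sox6- and 92.9% of Sox6 nuclei, and Epha5 did not pass against Sox6 nuclei. Against Sox6 nuclei Nrp1, Nrp2, Epha6 and Efna5 were higher and Sema6d, Robo2 and Epha4 lower, where 2.75% and 1.8% of all genes were (median 0.25). Nrp2, the other neuropilin, was at 50.8 and 68.3 CPM against 21.3 and 11.7 CPM (log2 fold change 1.95, SE 0.37, adjusted p = 3.0e-05), and Epha4 at 102 and 97.5 CPM against 164 and 213 CPM (adjusted p = 1.9e-04). The calls of Nrp1, Epha5 and Unc5d against Otx2-/Sox6- nuclei were each lost in 8 of the other fits, DESeq2 and the fit without the block among them, and the adjusted p of Nrp1 ranged from 0.0034 to 1.00 over all fits. Against Sox6 nuclei the calls of Nrp1, Nrp2 and Epha6 held in every fit that tested them, and none of the 3 lower ones held with DESeq2.

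Of 18 tested ion channel genes of pacemaking and excitability, Kcnip1 and Kcnip4 passed against Otx2-/Sox6- nuclei. Kcnip1, an auxiliary subunit of the Kv4 channels that set A-type potassium current, was at 224 and 234 CPM in Otx2 nuclei, 127 and 100.3 CPM in Otx2-/Sox6- and 39.6 and 29.3 CPM in Sox6 nuclei (log2 fold change 1.04, SE 0.18, adjusted p = 3.3e-05 and log2 fold change 2.75, SE 0.22, adjusted p = 1.3e-21). It was detected after thinning in 27.4% (19.8 to 36.2), 10.0% (7.75 to 12.6) and 2.10% (1.12 to 3.56) of nuclei, and unthinned in 48.4%, 23.1% and 9.03%. The Kcnip1 call against Otx2-/Sox6- nuclei was lost with DESeq2, without the block and with 1 comparison nucleus per member (adjusted p 7.4e-06 to 0.41 over all fits). Kcnip1 was at 75.5 and 116 CPM in Otx2 nuclei with Sox6 and at 324 and 320 CPM in those without, which was not tested. Its paralog Kcnip4 was lower than in Otx2-/Sox6- nuclei, at 4469 and 5813 CPM against 6634 and 8266 CPM (log2 fold change -0.54, SE 0.07, adjusted p = 1.6e-09), and did not pass against Sox6 nuclei at 5151 and 4911 CPM (adjusted p = 0.99). The Kcnip4 call was lost with DESeq2 and without the block. The median log2 fold change over the 18 genes was 0.04, and 0.448% of all genes were higher and 0.374% lower. Against Sox6 nuclei the pore-forming Kcnd2 (Kv4.2) was higher at 895 and 878 CPM against 463 and 425 CPM (log2 fold change 0.97, SE 0.11, adjusted p = 1.3e-13) and Kcnd3 (Kv4.3) lower at 1174 and 1261 CPM against 1544 and 1727 CPM (log2 fold change -0.46, SE 0.09, adjusted p = 3.1e-05). Kcnip1, Kcnn2, Kcnh7 and Scn9a were also higher and Kcnj6 and Kcnq3 also lower, 5 and 3 of the 18 where 2.75% and 1.8% of all genes were (median -0.15). With DESeq2 and without the block the calls of Kcnd2, Kcnip1, Kcnh7 and Kcnj6 held. Kcnh5, an ether-a-go-go potassium channel outside that list, was at 102 and 130.0 CPM, 58.3 and 53.1 CPM and 33.5 and 18.2 CPM (log2 fold change 1.10, SE 0.24, adjusted p = 0.0041 against Otx2-/Sox6- nuclei).

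Of 12 tested receptor genes for peptides and monoamines, none passed against Otx2-/Sox6- nuclei, and against Sox6 nuclei Tacr3, Oprk1, Hcrtr2 and Adra1a were higher and Drd2 lower, where 2.75% and 1.8% of all genes were (median log2 fold change 0.17 and 0.25). Oprk1, the kappa opioid receptor, was at 127 and 198 CPM against 78.1 and 117 CPM (adjusted p = 0.012), a call lost in 6 of the other fits. Of the 5 calls, that of Tacr3 held with DESeq2 and without the block. Hcrtr2, an orexin receptor, was at 20.3 and 65.0 CPM against 6.09 and 13.0 CPM (adjusted p = 2.8e-04), with the male level near that of the male Otx2-/Sox6- nuclei, 20.5 CPM. Of 16 genes of retinoic acid metabolism and its receptors, 7 were tested, and Aldh1a1, against Otx2-/Sox6- nuclei, was the only one to pass (median -0.42 and -0.16). Of the 18 WNT and SHH pathway genes, 8 were tested and none passed (median -0.09 and 0.09). Of 12 neuropeptide genes only Cck and Igf1 could be tested, with Igf1 lower than in Sox6 nuclei as given above (median 0.25 and -0.12).

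Markers of other cell types were read in each class. Of the oligodendrocyte genes, Mbp, a myelin protein gene, had a UMI in 12.9% of Otx2 nuclei, 9.68% of Otx2-/Sox6- and 5.48% of Sox6 nuclei, and Mal was at 0 in Otx2 nuclei. The part of oligodendrocyte RNA in the results was not tested. The 7 astrocyte genes together were at 336 and 293, 204 and 187 and 150.2 and 147 CPM, nearly all from Slc1a2, while Gfap, Gli3, Aqp4 and Gja1 were at 0 in Otx2 nuclei. Slc1a2, a glutamate transporter gene that neurons can also transcribe, was higher than in both classes (log2 fold change 0.66, SE 0.15, adjusted p = 0.0075 and log2 fold change 1.06, SE 0.16, adjusted p = 7.6e-08) and was found in 62.1% of Otx2 nuclei. Its call against Otx2-/Sox6- nuclei was lost in 4 of the other fits. Of the GABAergic genes, Slc32a1, Gad1, Meis2, Six3, Tal1, Gata3 and Sox14 were at 0 in Otx2 nuclei. The 7 glutamatergic genes were at 25.4 and 52.0, 22.7 and 19.6 and 10.1 and 7.16 CPM, led by Slc17a6 in the male and Neurod6 in the female Otx2 nuclei, with Slc17a7, Tbr1 and Barhl1 at 0. All 4 serotonergic genes (Tph2, Slc6a4, Fev and Htr5b) were at 0. Otx2 is also a gene of the choroid plexus, and of its 8 markers Ttr, Kl, Folr1, Foxj1 and Tmem212 were at 0 in Otx2 nuclei. The sum, 153 and 97.5 CPM against 83.1 and 66.9 and 67.0 and 48.8 CPM, came mainly from Enpp2, which did not pass, and Prlr, which was higher than in Sox6 nuclei (adjusted p = 2.5e-04). Oligodendrocyte precursor genes were at 5.08 and 3.25 CPM and endothelial and mural genes at 5.08 and 13.0 CPM, with Pdgfra, Olig1 and Olig2, and Pdgfrb, Rgs5, Abcc9, Cldn5 and Cdh5, at 0.

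Otx2 is counted at 1 UMI in most members, which is the lowest count that can be seen. A comparison in nuclei the rule did not use was therefore added after the data were seen. It set 1029 nuclei with Otx2os1 and no Otx2 UMI (640 and 389) against depth-matched nuclei with no UMI of Otx2 or Otx2os1, none of them used above. Neither group was selected on Sox6, so both could hold nuclei with Sox6. Otx2os1 was itself a gene called in the Otx2 nuclei. Of 11195 genes tested, 486 were higher in Otx2os1 nuclei (4.34%) and 359 lower (3.21%). Of the 42 genes higher in Otx2 than in Otx2-/Sox6- nuclei, 41 were tested here and 36 were higher (87.8%), with none lower. Of the 35 lower ones 14 were lower (40.0%) and 4 were higher. Of the 258 genes higher than in Sox6 nuclei, 218 of 257 tested were higher (84.8%), and of the 169 lower ones 142 were lower (84.0%), with none called in the other direction. Col23a1 was at 126 and 142 CPM against 17.4 and 23.5 CPM (log2 fold change 2.70, adjusted p = 1.7e-35), Sorcs3 at 461 and 349 CPM against 109.7 and 69.3 CPM (2.12, 2.3e-50) and Nrp1 at 64.3 and 53.2 CPM against 19.1 and 18.2 CPM (1.64, 1.6e-12). Aldh1a1 did not pass (188 and 244 CPM against 163 and 196 CPM, log2 fold change 0.22, adjusted p = 0.11), nor did Airn (0.09, 0.83), while Calb1 was higher (82.0 and 83.1 CPM against 44.9 and 45.7 CPM, 0.83, 7.3e-07). Of the 10 named lower genes Rbfox1 (-0.28, 7.1e-05) and Ldb2 (-0.57, 0.0047) were lower, and the others did not pass. Adcyap1 (1.92, 0.0045), Neurod6 (2.68, 2.2e-05), Cbln4 (1.76, 0.0029) and Otx1 (2.00, 3.7e-04), too sparse to test in the Otx2 nuclei, were higher here. Grp and Vip, also too sparse to test in the Otx2 nuclei, are not reported for this comparison. Sox6 was lower in Otx2os1 nuclei (-1.22, 2.0e-31). Of the 42 genes higher than in Otx2-/Sox6- nuclei, 37 were also called higher than in Sox6 nuclei. The overlaps given here are therefore not independent of the difference in Sox6, and its part in them was not tested.

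**Figure D5:**
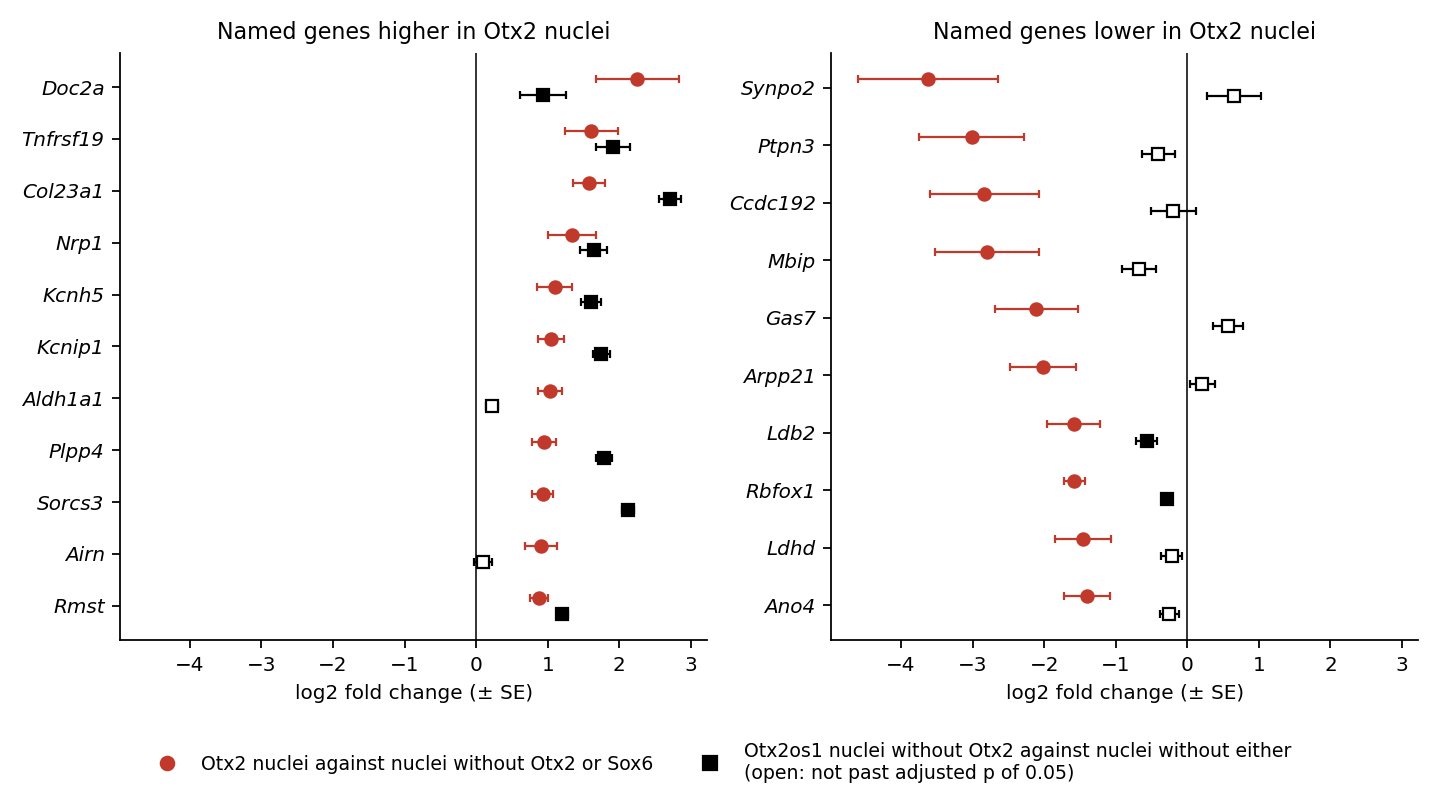
Fitted log2 fold changes (x axis, with SE bars) of the genes named as higher (left) or lower (right) in Otx2 nuclei than in Otx2-/Sox6- nuclei (red circles), beside the same genes in Otx2os1 nuclei without Otx2 against nuclei without either (black squares, open where not past an adjusted p of 0.05), with Otx2os1 itself left out. On the left 9 of 11 squares are filled and lie above 0, with Aldh1a1 and Airn open, and on the right Ldb2 and Rbfox1 are filled, below 0.

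Otx2 belongs to the K50 homeodomain class, whose members bind TAATCC (or GGATTA on the other strand). This motif was searched for on both strands in RefSeq promoter windows of GRCm38.p6, each covering 250 bases before to 50 bases after a start site. It occurred in 7.06% of all windows, and in at least 1 window of 476 of 7321 tested genes with a window (6.50%). Among genes higher than in Otx2-/Sox6- nuclei it occurred in 3 of 31 (9.68%), and among lower ones in 0 of 24. For the comparison with Sox6 nuclei it occurred in 18 of 189 higher (9.52%) and 6 of 132 lower genes (4.55%). The 3 genes with the motif that were higher than in Otx2-/Sox6- nuclei had it in 4 of the 47 windows of that set, and 1 such window per gene is shown, 5′ to 3′ on the gene's strand, with the motif in capitals.
Airn (chr17:12741061-12741360, plus strand): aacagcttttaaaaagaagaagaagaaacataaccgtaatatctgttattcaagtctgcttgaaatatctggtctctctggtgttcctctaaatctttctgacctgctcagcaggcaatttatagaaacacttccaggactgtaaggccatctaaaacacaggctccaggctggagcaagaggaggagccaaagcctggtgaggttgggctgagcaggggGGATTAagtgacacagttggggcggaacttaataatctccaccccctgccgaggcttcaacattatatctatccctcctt
Brinp3 (chr1:146495379-146495678, plus strand): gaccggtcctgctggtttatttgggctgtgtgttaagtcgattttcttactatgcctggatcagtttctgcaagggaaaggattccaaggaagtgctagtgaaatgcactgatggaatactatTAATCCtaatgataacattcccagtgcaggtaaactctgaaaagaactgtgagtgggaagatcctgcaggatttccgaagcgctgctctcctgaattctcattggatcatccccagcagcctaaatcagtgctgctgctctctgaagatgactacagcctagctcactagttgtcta
Pde1a (chr2:80129363-80129662, minus strand): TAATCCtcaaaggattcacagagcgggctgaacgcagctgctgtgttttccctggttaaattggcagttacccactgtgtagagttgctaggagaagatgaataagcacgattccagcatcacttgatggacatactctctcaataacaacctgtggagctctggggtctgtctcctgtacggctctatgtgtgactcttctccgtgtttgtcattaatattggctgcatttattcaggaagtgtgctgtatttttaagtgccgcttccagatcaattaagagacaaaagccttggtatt

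The first base of the motif lay 30 bases before the start site in Airn, 127 in Brinp3 and 250 in Pde1a. Brinp3, an inhibitor of neural proliferation, was at 249 and 393 CPM against 187 and 188 CPM in Otx2-/Sox6- nuclei (log2 fold change 0.83, adjusted p = 1.7e-04). Pde1a, a calmodulin-dependent phosphodiesterase, was at 407 and 529.9 CPM against 308 and 309 CPM (0.62, 0.0012). Both were named for the motif after their values were seen, and a match of 6 letters is a description of the window and not a binding site.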

How the data were processed

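GFP+ singlet nuclei of 2 pooled male and 3 pooled female adult mice were profiled as 1 droplet library each. Per the labels the authors made the deposited counts of UMIs per gene and nucleus with Cell Ranger 6.0.0 on mm10, introns included, and used Seurat 4.0.2. All 32285 genes were read, every sample column was mapped, and nuclei with at least 500 detected features (12065 of 12151) were kept. The members and the 18 gene lists (212 genes) were chosen with earlier results of these data known.

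Otx2 nuclei were compared with Otx2-/Sox6- and Sox6 nuclei of the same library, 5 per member at the nearest UMI total. UMIs were summed per class and library, which gave 6 sums, and fitted with edgeR 4.0.16 (R 4.3.3) by the quasi-likelihood test with TMM, filterByExpr and the library as block, leaving 2 residual degrees of freedom, with Benjamini-Hochberg adjustment over all genes tested and a threshold of 0.05. Otx2 and Sox6 chose the classes and were not tested. The 2 libraries are pools, so sex and pool cannot be told apart. The block takes out differences in level between the libraries. The p-values therefore measure class differences against counting error and their variation from 1 library to the other, and not variation among mice. Limits of detection were 3 UMIs, and intervals are exact Clopper-Pearson. Shares were compared after thinning nuclei to 1000 UMIs. Named were up to 12 higher and 10 lower genes by log2 fold change that passed, had the same sign in both libraries and held at least 5 UMIs per library in the class where they were higher, with unnamed gene models skipped, together with the genes of the lists. The fits were tested on simulated data. Against Otx2-/Sox6- nuclei they called 62.5% of genes set 2-fold higher and 17.5% of those set 2-fold lower. At 4-fold the shares were 87.1% and 44.1%. Against Sox6 nuclei they were 67.5% and 27.5% at 2-fold and 96.8% and 61.8% at 4-fold. Lower genes were thus missed more often, and a gene that did not pass may still differ. Alternatives were DESeq2 1.42.0, no block, library-size scaling, other filters, other matching, thinned sums and leaving out libraries or nuclei. No doublet caller was run. Some items of the marker lists are not reported here.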

Additional observations from a re-analysis of the deposited data

How the results depend on the processing

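All 77 genes called against Otx2-/Sox6- nuclei kept their sign in the refits over both libraries that tested them, and so did those called against Sox6 nuclei except 2 after thinning. Within single libraries Grin2a, called against Otx2-/Sox6- nuclei, and Adcy2, Acvr2a, Cacna1h, Lemd1 and Asic2, called against Sox6 nuclei, had the opposite sign in 1 library. The number of calls depended on the fit. Against Otx2-/Sox6- nuclei, DESeq2 called 5 genes (4 higher, 1 lower), the fit without the replicate block 3 (1 and 2), thinned sums 36 (16 and 20), and 2 comparison nuclei per member 47 (26 and 21). The higher calls were 23 with 1 comparison nucleus per member, chosen after the data were seen, and 21 with no filter on low counts, and the lower calls were 19 at a minimum of 1000 features. The share of calls that were higher, 54.5% in the reported fit, was 43.7% without depth matching, 44.4% with thinned sums, 42.6% with 1 comparison nucleus, 30.9% with no filter and 64.8% at 1000 features. Against Sox6 nuclei, DESeq2 called 138 (99 and 39), the fit without the replicate block 159 (107 and 52), thinned sums 245 (114 higher), and unmatched nuclei 301 lower. Here the share that were higher, 60.4%, was 48.2% unmatched, 46.5% thinned, 44.7% with no filter and 71.7% with DESeq2. Thinned sums turned the sign of 2 values that had not passed, Th against Otx2-/Sox6- nuclei (log2 fold change -0.073) and Aldh1a1 against Sox6 nuclei (-0.15). The share of Otx2 nuclei with Aldh1a1 was 46.0% unthinned and 29.9% at 1500 UMIs, and 9.62% to 22.2% when 1 library was left out, but a second draw put the male library alone at 26.9% and the female at 22.2%, so this range moves with the draw. The share with Calb1 was 27.4% unthinned and 6.94% to 15.4% with 1 library left out, against 9.62% and 9.72% for the same libraries in the second draw. A rule of 2 Otx2 UMIs leaves 6 nuclei, and thinning to 1000 UMIs leaves 41 with Otx2. Of 976 tested results for single genes, 711 kept their side of the threshold, 263 lost it and 2 reversed. With 1 library left out there is no test, and of 172 values 44 moved. The cause of these changes was not tested. With 52 and 72 nuclei in the Otx2 sums, counts near 15.3 and 9.75 CPM per library rest on 3 UMIs.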
